A study of Mus musculus with 12 samples.

Results

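The 56 genes described here encode the TGF-beta, activin, Nodal and BMP signalling pathway: its ligands, receptors and coreceptors, the SMAD proteins, the proteins that store or block the ligands, and the ID genes that the pathway controls. They were chosen by gene symbol, with earlier results of these data known, and all 56 were among the 32544 rows of the table. The shares of members called below are therefore a description and no independent support. RNA was sequenced in bulk from 3T3 cells, an established mouse fibroblast line, in 4 groups of 3 libraries. Untreated cells received no vesicles. The other groups received, for 24 h, extracellular vesicles (EVs), small membrane particles that cells shed, whose donors were human breast cancer cells of the line MDA-MB-468. By the labels these donors were control cells (shCon EVs), cells with CRIPTO knocked down (shCr EVs) or cells overexpressing CRIPTO (CrOE EVs). The knockdown and the overexpression were thus in the donor cells, and all recipients were unmodified as far as the labels say. The labels give no vesicle dose, no vehicle control and no statement on separate cultures or on the clonality of the donor lines, so p-values measure the spread between these libraries, which may be technical. The CrOE libraries were identified by elimination, because their columns carry only the protein's name. The labels name no separate vector control for the overexpressing donors. In comparisons with CrOE EVs, vector or line differences therefore cannot be told apart from CRIPTO. Per the labels, the library kit was a directional one with poly(A) selection.

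Ligands of this superfamily bind pairs of type I and type II serine/threonine kinase receptors. TGF-betas, activins and Nodal act mainly through SMAD2 and SMAD3, BMPs mainly through SMAD1, SMAD5 and SMAD9, and both branches share SMAD4. CRIPTO, encoded in the mouse by Tdgf1, is a small cell-surface protein known as a coreceptor for Nodal and as a modulator of activin and TGF-beta signalling. In fibroblasts, TGF-beta is best known for driving matrix production and the contractile state, and the ID genes are known as direct targets of BMP signalling.

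Libraries held 25960054 to 37774020 estimated counts. All 12 fibroblast markers looked at were above 3 counts in every group, except that Lum was at or under 3 counts in each CrOE library. Their summed level was 20695 to 22262 CPM (a gene's counts as a share of all counts, scaled to a fixed total and between libraries) in untreated cells, 25378 to 25734 with shCon EVs, 16389.9 to 18394 with shCr EVs and 8702 to 9080.1 with CrOE EVs. The 10 epithelial markers summed to at most 4.09 CPM in any library and Epcam was at 0 in all 12. Endothelial markers summed to at most 2.56 CPM (0.589 to 0.879 in untreated and 2.25 to 2.56 in CrOE libraries), leukocyte markers to at most 10.5 CPM, and muscle markers to at most 3.85 CPM. With CrOE EVs, 3 of 3 tested endothelial and 2 of 4 tested epithelial markers rose against untreated cells. By contrast, 1 epithelial, 2 of 3 leukocyte and 2 of 4 muscle markers fell. Of all tested genes 36.7% rose and 37.0% fell in this comparison. Adipocyte markers, almost wholly Fabp4, summed to 21.4 to 26.8 CPM in untreated cells and 1.74 to 2.13 after CrOE EVs, and Cidec and Lep were at 0 throughout. Mitochondrial transcripts took 0.495% to 1.70% of counts. The first principal component, which held 73.7% of the variance, set the CrOE libraries (scores 108.7 to 113.1) apart from the other 9 (-41.8 to -29.7). With CrOE EVs 11 of the 12 fibroblast markers fell and 0 rose against untreated cells, with shCr EVs 7 fell and 2 rose, and with shCon EVs 4 fell and 3 rose. Of all tested genes 37.0%, 18.8% and 20.2% fell and 36.7%, 18.4% and 18.0% rose, in that order. The part of the marker levels and of the mitochondrial share in the results was not tested. In bulk RNA, fewer cells of a kind and less RNA per cell cannot be told apart.

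CRIPTO's own mouse gene, Tdgf1, was looked at first. It had 1, 3 and 2 counts in the untreated libraries, 0, 0 and 2 with shCon EVs, 0, 1 and 0 with shCr EVs and 0, 0 and 0 with CrOE EVs. All 12 libraries were thus at or under the detection floor of 3 counts, which was 0.112 CPM in the untreated group, and no difference was detectable at this depth. This floor covers counting error only. Tdgf1 speaks for the recipient cells and does not check the CRIPTO level of the donors, which was not analysed here. Nodal, Lefty1, an antagonist of Nodal, and Acvr1c, a type I receptor through which Nodal can signal, were also at or under 3 counts in every library. Another 5 members, the ligands Gdf1, Gdf3, Bmp2, Bmp6 and Bmp7, did not pass the low-count filter and were at or under 0.432 CPM in every library. Gdf1 shares all of its exon bases with Cers1. The other 47 members were tested. Noggin (Nog) passed the filter only through the CrOE libraries, so its calls with CrOE EVs, which are in the counts that follow, carry no weight. It, Fstl3 and Acvrl1 would drop out if 10 counts were required in every library.

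Differences between groups were tested with edgeR over all 14279 genes that passed the filter, and a gene was called when its Benjamini-Hochberg adjusted p was under 0.05. After shCon EVs, 30 of 47 members differed from untreated cells, 10 higher and 20 lower, where 38.1% of all tested genes were called (18.0% higher and 20.2% lower). After shCr EVs, 30 members were called, 8 higher and 22 lower, beside 37.3% of all genes (18.4% higher and 18.8% lower). After CrOE EVs, 40 members were called, 11 higher and 29 lower, but the background was 73.7% (36.7% and 37.0%). The members' share there was 85.1%, nearer to its background than the 63.8% with shCon or shCr EVs. Median log2 fold changes over the tested members were -0.22, -0.21 and -0.79 in the 3 comparisons, against 0.007, 0.020 and 0.008 over all tested genes. The scaling between libraries centres the bulk of genes, so the medians over all genes are no separate finding. Small fold changes depend on this scaling. These 3 comparisons share the untreated libraries.

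Between EV groups, 16 members differed between shCr and shCon EVs, 7 higher and 9 lower after shCr EVs, beside 8.73% of all genes (5.22% higher and 3.51% lower). That share of the members was 34.0%. Without shCon replicate 1, 2 and 3, 10, 8 and 7 members were called, and 7 when only these 2 groups were modelled. The share of all genes called fell alike, to 4.72%, 4.37% and 4.58%, and to 4.66% with only these groups. Leaving out other libraries did not always lower the count. It was 16 without shCr replicate 1 or 3, 12 without shCr replicate 2 and 19 without untreated replicate 2. Beside these, 9.58%, 8.44%, 6.62% and 9.33% of all genes were called. CrOE EVs differed from shCon EVs in 39 members, 13 higher and 26 lower (background 72.6%, of which 36.5% higher and 36.1% lower), and from shCr EVs in 37, 11 higher and 26 lower (background 73.9%, of which 36.9% higher and 37.0% lower). With a fold of at least 2 also required, 5, 7 and 24 members were called against untreated cells with shCon, shCr and CrOE EVs, beside 6.04%, 6.28% and 29.7% of all genes. Between EV groups it left 3 for shCr against shCon EVs, 20 for CrOE against shCon EVs and 19 for CrOE against shCr EVs, beside 0.756%, 27.2% and 29.6%.

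**Figure D1:**
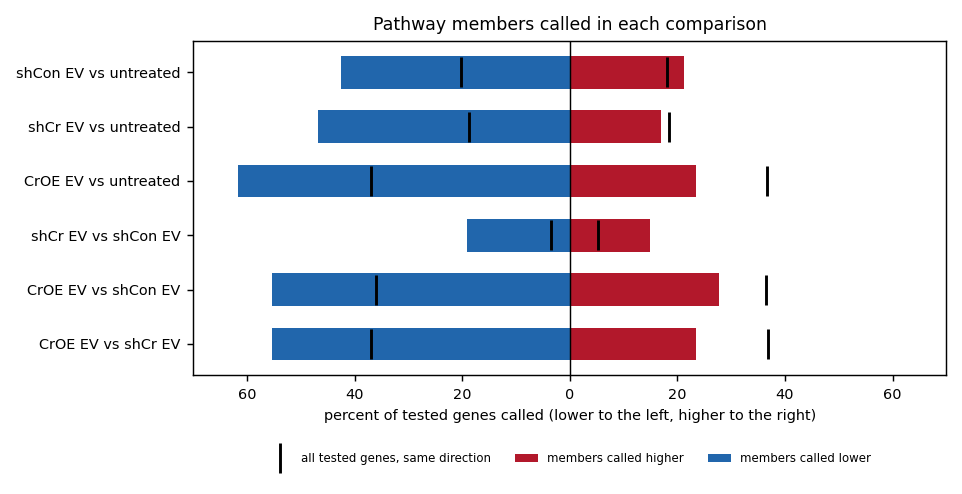
Share of the 47 tested members called in each comparison, in percent, lower to the left and higher to the right; the black marks give the share of all tested genes called in that direction. The bars for lower members reach past the mark in every comparison. Those for higher members do so only for shCon EVs against untreated cells and for shCr against shCon EVs. The comparison of shCr with shCon EVs has the smallest background, 8.73%.

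Read gene by gene against untreated cells, 14 members were lower after all 3 kinds of EV: Tgfbr3, Inhbb, Acvr1b, Tgfbr2, Smad6, Ltbp1, Ltbp2, Fst, Fstl1, Grem1 and the 4 ID genes. Over all tested genes 9.08% were lower in all 3 of these comparisons, which share the untreated libraries. Another 2, Bmpr1b and Tgif1, were higher after all 3, beside 6.29% of all genes. A call with one kind of EV and none with another does not show that they differ, which was tested between EV groups directly. Calls with CrOE EVs alone were lower for 6 (Tgfb3, Inhba, Bmp4, Bmpr1a, Bmpr2 and Ltbp4) and higher for 4 (Smad4, Smad5, Smurf1 and Nog, the last tested only because its CrOE level passed the low-count filter). Tgfb1, Smad3 and Bambi were lower after CrOE EVs but higher after shCon and shCr EVs, while Smad1 and Smad7 were higher after CrOE EVs but lower after shCon and shCr EVs. Skil was higher after shCon and CrOE EVs and lower after shCr EVs. Among these, the calls of Smad1 with shCon and shCr EVs, and of Bmpr1a and Bmpr2 with CrOE EVs, were lost without single libraries, which are named with each gene. In some alternative fits, also given with each gene, Tgfb3, Bmpr1a and Bmpr2 were called with shCr EVs too. For calls with CrOE EVs alone, and for opposite directions between kinds of EV, the share of all genes was not counted. CrOE EVs called 73.7% of all genes against untreated cells, beside 38.1% with shCon and 37.3% with shCr EVs. These patterns are therefore not read as particular to the members.

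**Figure D2:**
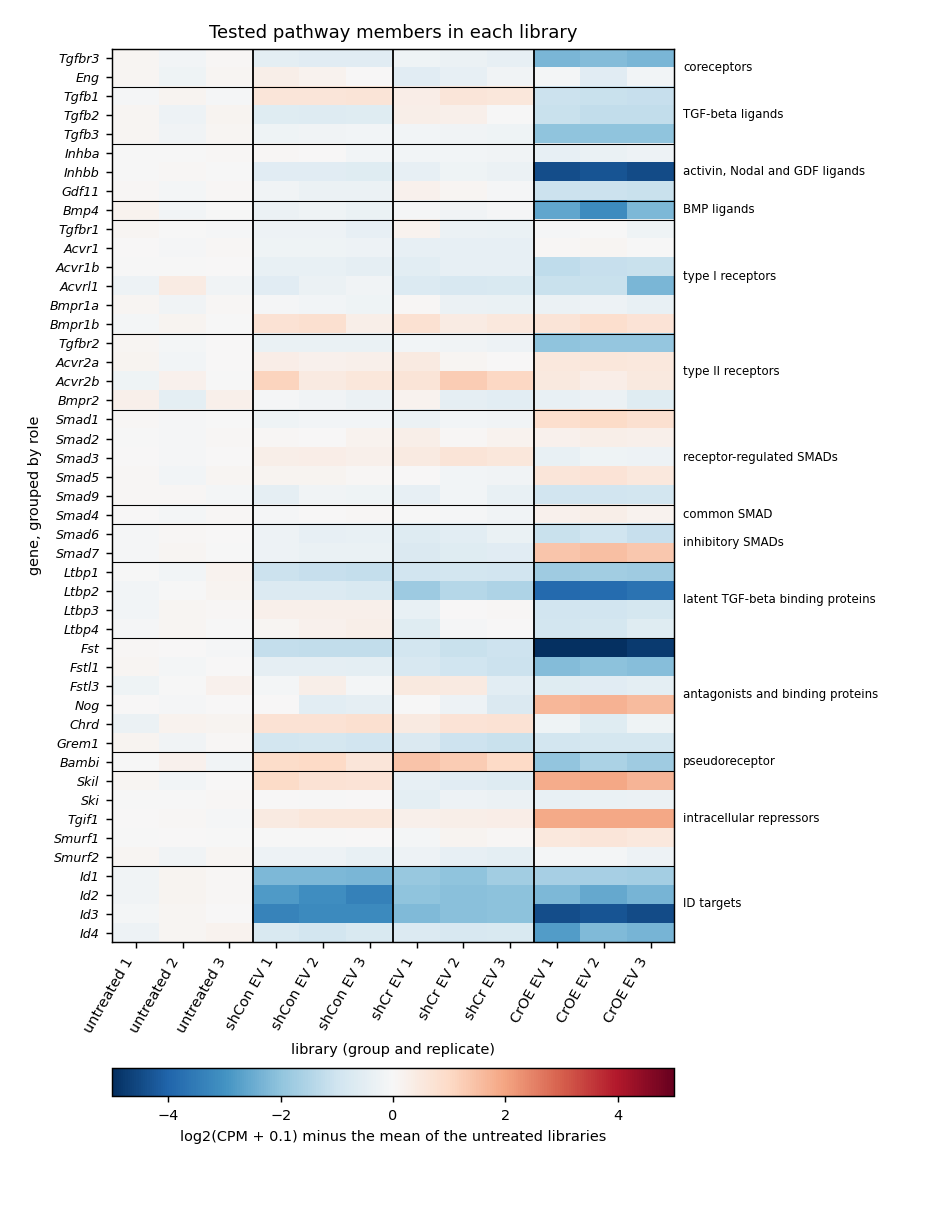
Level of the 47 tested members (rows, grouped by role) in the 12 libraries (columns), as log2(CPM + 0.1) minus the mean of the untreated libraries; red is higher and blue lower. The CrOE columns carry the deepest blue, at Fst, Id3 and Inhbb, and the Id1, Id2 and Id3 rows are blue in all 9 EV libraries.

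Of the members lower after all 3 kinds of EV, the promoters of Id4, Grem1 and Inhbb are shown. Others with a promoter entry, Smad6, Ltbp2 and Id3 among them, are not. For each of the 3 shown, RefSeq (GRCm38.p6, the reference's build and not the authors' mm39) gives a start site, and the 250 bases before it hold no annotated exon. They are shown 5′ to 3′ on the gene's strand, because Id4 and Grem1 carry letters of known SMAD sites and Inhbb, which fell most of the 3 with CrOE EVs, carries none. Capitals mark the searched motifs. The Id4 window lies at chr13:48260866-48261115, plus strand, that of Grem1 at chr2:113758649-113758898, minus strand and that of Inhbb at chr1:119422249-119422498, minus strand.
Id4: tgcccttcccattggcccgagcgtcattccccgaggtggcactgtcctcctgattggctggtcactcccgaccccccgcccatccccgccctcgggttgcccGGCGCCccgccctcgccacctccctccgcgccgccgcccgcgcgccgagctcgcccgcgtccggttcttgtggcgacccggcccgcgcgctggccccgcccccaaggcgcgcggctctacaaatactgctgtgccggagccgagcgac
Grem1: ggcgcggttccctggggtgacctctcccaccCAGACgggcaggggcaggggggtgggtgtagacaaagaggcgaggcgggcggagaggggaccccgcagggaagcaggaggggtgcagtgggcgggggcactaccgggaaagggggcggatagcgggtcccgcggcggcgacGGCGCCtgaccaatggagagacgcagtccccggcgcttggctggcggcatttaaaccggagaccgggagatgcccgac
Inhbb: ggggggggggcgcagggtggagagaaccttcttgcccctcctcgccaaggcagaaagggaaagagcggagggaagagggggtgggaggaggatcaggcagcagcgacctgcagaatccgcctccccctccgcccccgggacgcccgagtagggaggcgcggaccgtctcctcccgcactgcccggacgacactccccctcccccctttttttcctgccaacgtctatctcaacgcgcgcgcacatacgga

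The motifs searched, on both strands, were GTCTAGAC, the palindromic SMAD-binding element, a shorter form written GTCTG, which reads as CAGAC on the opposite strand, and GGCGCC, a GC-rich SMAD site; none of the 3 holds another. Id4 holds GGCGCC from -148 relative to the start, and Grem1 holds CAGAC from -219 and GGCGCC from -78. In windows of 250 bases before to 50 after the start, GGCGCC was in 29.1% of the 55 windows of the 41 members with an entry, against 11.9% of all 32851 windows. GTCTG was in 47.3% against 49.6%, and GTCTAGAC in 1.8%, the single window of Smad6, against 0.2%. These shares were not tested, base composition was not matched between the windows, and some windows of one gene overlap. Other members lower after all 3 kinds of EV also held motifs in these windows, such as GGCGCC in Acvr1b and Id2 and GTCTG in Ltbp2 and Id3. Fstl1, like Inhbb, held none. The 3 promoters shown were picked by motif and fall, so they cannot relate the motifs to the falls. A match is a run of letters and not a site shown to be bound.

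Among the ligands, Tgfb1, the most widely used TGF-beta, stood at 53.3 ± 4.01 CPM in untreated cells, 82.1 ± 1.92 with shCon EVs, 76.0 ± 7.56 with shCr EVs and 24.7 ± 0.586 with CrOE EVs (mean ± SD, n = 3). It rose with shCon EVs (log2 fold change 0.62) and shCr EVs (0.51) and fell with CrOE EVs (-1.11). Tgfb2 had 23.2, 18.1 and 23.9 CPM in the untreated libraries, 14.0, 13.6 and 14.2 with shCon EVs, 26.5, 26.01 and 21.5 with shCr EVs and 9.93, 9.16 and 9.21 with CrOE EVs. The shCon and CrOE libraries all lay below the untreated ones, whereas the shCr libraries overlapped them. Tgfb2 fell with shCon EVs (log2 fold change -0.64, SE 0.11, adjusted p = 0.000503) and CrOE EVs (log2 fold change -1.21, SE 0.11, adjusted p = 4.6e-07). From shCon to shCr EVs it was higher after shCr EVs (log2 fold change 0.82, SE 0.11, adjusted p = 0.000472), with no overlap of libraries, and this call held in all alternatives run. Tgfb3 stood at 35.4 ± 3.55 CPM in untreated cells, 31.3 ± 1.09 with shCon EVs, 31.1 ± 0.761 with shCr EVs and 8.70 ± 0.0467 with CrOE EVs, and fell with CrOE EVs (log2 fold change -2.03). With shCon and shCr EVs its log2 fold changes were -0.18 (adjusted p = 0.0608) and -0.19 (adjusted p = 0.0512). Both passed without untreated replicate 2 or shCr EV replicate 1, and the second also with DESeq2, other size factors or the stricter low-count filter (adjusted p = 0.00286 to 0.0435 for shCr EVs). About 12.4% of its exon bases lie opposite another gene's exons.

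Inhbb encodes the beta-B subunit of activins and inhibins. It had 93.3, 100.01 and 92.9 CPM in the untreated libraries, 63.7, 63.5 and 62.6 with shCon EVs, 71.1, 81.2 and 78.3 with shCr EVs and 4.35, 4.65 and 4.24 with CrOE EVs. The 4 groups did not overlap, and the CrOE libraries lay far below the others. The log2 fold change was -0.59 with shCon EVs (SE 0.06, adjusted p = 5.5e-06), -0.31 with shCr EVs (SE 0.06, adjusted p = 0.000865) and -4.43 with CrOE EVs (SE 0.07, adjusted p = 7.1e-14). It was higher after shCr than after shCon EVs (log2 fold change 0.28, SE 0.06, adjusted p = 0.00915), a call lost without shCon EV replicate 3 or when the other groups were left out of the model (adjusted p = 0.0504 to 0.061, edgeR). Inhba, the beta-A subunit, moved little, from 14.0 ± 0.367 CPM in untreated cells to 11.1 ± 0.636 after CrOE EVs (log2 fold change -0.34, adjusted p = 0.000703). Gdf11, a ligand close to myostatin, fell from 49.6 ± 3.02 to 23.3 ± 0.331 CPM with CrOE EVs (log2 fold change -1.09). Its small fall with shCon EVs (-0.24) was lost without untreated replicates 1 or 3 or shCon EV replicates 2 or 3 (adjusted p = 0.0741 to 0.0826, edgeR), and its higher level after shCr than after shCon EVs (0.32) was lost without shCon EV replicates 2 or 3 or shCr EV replicate 2 or when the other groups were left out of the model (adjusted p = 0.051 to 0.0844, edgeR). Bmp4 was the one BMP ligand tested, at 7.03 ± 0.807 CPM in untreated cells, 5.76 ± 0.221 with shCon EVs, 6.58 ± 0.316 with shCr EVs and 1.06 ± 0.353 with CrOE EVs, and fell with CrOE EVs (log2 fold change -2.72). Thus all 7 ligands tested fell with CrOE EVs, 3 of them fell with shCon EVs and 1 with shCr EVs, where 37.0%, 20.2% and 18.8% of all genes fell.

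To compare genes of one role, levels were divided by exon length and are given as CPM per kilobase. Tgfbr3, or betaglycan, which presents TGF-beta2 and inhibin to their receptors, was by far the most abundant coreceptor at 72.1 ± 6.11 CPM per kilobase in untreated cells, while endoglin (Eng), the coreceptor best known from endothelium, stood at 0.846 ± 0.105. Betaglycan fell to 49.7 ± 1.05 with shCon EVs, 58.0 ± 3.42 with shCr EVs and 15.1 ± 0.677 with CrOE EVs (log2 fold changes -0.54, -0.31 and -2.26). Eng had 3.66, 2.93 and 3.68 CPM in the untreated libraries, 4.22, 3.88 and 3.49 with shCon EVs, 2.26, 2.53 and 2.99 with shCr EVs and 3.20, 2.30 and 3.06 with CrOE EVs. Libraries of each EV group overlapped the untreated ones, and no EV group passed the test against them. Without untreated replicate 2 or shCr EV replicate 3, shCr EVs did pass (adjusted p = 0.0439 to 0.0471, edgeR). The shCr and shCon libraries did not overlap. Eng was lower after shCr than after shCon EVs (log2 fold change -0.57, SE 0.16, adjusted p = 0.0488), a call lost without untreated replicates 1 or 3, shCon EV replicates 1, 2 or 3, shCr EV replicates 1 or 2 or CrOE EV replicates 1 or 3, when the other groups were left out of the model or without the low-count filter (adjusted p = 0.0542 to 0.167, edgeR). It was also called lower after CrOE than after shCon EVs. That call was lost without shCon EV replicates 1 or 2 or CrOE EV replicate 2 (adjusted p = 0.0578 to 0.109, edgeR).

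Of the type II receptors, Tgfbr2, which binds TGF-beta, stood highest at 44.3 ± 2.65 CPM per kilobase in untreated cells, followed by Bmpr2 at 7.06 ± 1.82, Acvr2a at 4.64 ± 0.419 and Acvr2b at 0.247 ± 0.0431. Bmpr2 and Acvr2a overlapped in single libraries, the others did not. Tgfbr2 fell to 11.5 ± 0.328 CPM per kilobase after CrOE EVs (log2 fold change -1.95, SE 0.06) and by less after shCon EVs (-0.33) and shCr EVs (-0.19), the last lost when the other groups were left out of the model (adjusted p = 0.0646, edgeR). It was still first in order after CrOE EVs, where Acvr2a, an activin and BMP receptor, came next at 6.69 ± 0.0991 and then Bmpr2 at 5.13 ± 0.513. Those 2 changed places when the longest transcript was used for length. Acvr2a rose with CrOE EVs (log2 fold change 0.53, adjusted p = 0.000306); about 7.8% of its exon bases lie opposite exons of Orc4. Its smaller rise with shCon EVs (0.28) was lost without untreated replicates 2 or 3, shCon EV replicates 1, 2 or 3 or CrOE EV replicates 1, 2 or 3 (adjusted p = 0.0589 to 0.135, edgeR). Acvr2b, a close relative at a low level, rose with shCon EVs (log2 fold change 0.79) and shCr EVs (1.07), the former lost without untreated replicates 1 or 3 or shCon EV replicate 1 (adjusted p = 0.064 to 0.109, edgeR).

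Bmpr2, the BMP type II receptor, had 146, 89.2 and 146 CPM in the untreated libraries, 119, 111 and 99.7 with shCon EVs, 138, 91.8 and 86.9 with shCr EVs and 95.1, 99.9 and 82.0 with CrOE EVs. Untreated replicate 2 lay far below the other untreated libraries and shCr replicate 1 far above the other shCr libraries, and all 4 groups overlapped. The fall with CrOE EVs (log2 fold change -0.46, SE 0.20, adjusted p = 0.0479) was lost without untreated replicates 1 or 3, shCon EV replicates 1, 2 or 3, shCr EV replicate 2 or CrOE EV replicates 1, 2 or 3 (adjusted p = 0.0507 to 0.171, edgeR). Without untreated replicate 2 or shCr EV replicate 1, the difference between shCr EVs and untreated cells passed (adjusted p = 0.0238 to 0.0431, edgeR). Mitochondrial transcripts took 1.64% of counts in untreated replicate 2, against 0.495% and 0.991% in the other untreated libraries, and 0.622% in shCr replicate 1, against 1.44% and 1.70%. Their part in the spread of Bmpr2 was not tested.

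Among type I receptors the order in untreated cells was Bmpr1a at 20.9 ± 2.04 CPM per kilobase, Acvr1 at 11.5 ± 0.524, Acvr1b at 10.9 ± 0.0838, Tgfbr1 at 7.24 ± 0.394, Bmpr1b at 0.574 ± 0.0495 and Acvrl1 at 0.289 ± 0.0832. Acvr1 and Acvr1b, neighbours in this order, overlapped in single libraries. Acvr1b, or ALK4, the activin and Nodal receptor that CRIPTO is known to bind, fell after every kind of EV and most after CrOE EVs, at 4.80 ± 0.227 CPM per kilobase (log2 fold changes -0.39, -0.43 and -1.18). Tgfbr1, the TGF-beta type I receptor, was not called in any of the 6 comparisons, with log2 fold changes of -0.31 (adjusted p = 0.0516), -0.13 and -0.10 against untreated cells. The first of these passed in 8 of the 19 alternative fits, among them those without shCr EV replicates 1, 2 or 3. Without shCr EV replicate 1, its group's highest library, so did the differences of shCr EVs from untreated cells and of CrOE EVs from both other EV groups. Acvr1 (ALK2) fell with shCon EVs (-0.22) and shCr EVs (-0.41) and was at 0.05 with CrOE EVs (adjusted p = 0.415). Its lower level after shCr than after shCon EVs (-0.20) was lost without untreated replicate 1, shCon EV replicates 1, 2 or 3, shCr EV replicates 2 or 3 or CrOE EV replicate 1, when the other groups were left out of the model or without the low-count filter (adjusted p = 0.0508 to 0.126, edgeR). Bmpr1a fell only slightly with CrOE EVs (log2 fold change -0.30), a call lost without untreated replicate 1 or CrOE EV replicate 3 (adjusted p = 0.0537 to 0.069, edgeR). Acvrl1 (ALK1), best known from endothelium, fell with CrOE EVs (-1.66) and with shCr EVs (-0.87), the latter lost without untreated replicates 2 or 3, shCon EV replicates 1, 2 or 3 or shCr EV replicates 1, 2 or 3 or without the low-count filter (adjusted p = 0.0531 to 0.177, edgeR).

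Bmpr1b (ALK6) was the one receptor higher after all 3 kinds of EV. It had 3.15, 3.74 and 3.38 CPM in the untreated libraries, 5.76, 6.04 and 4.18 with shCon EVs, 5.82, 4.58 and 5.01 with shCr EVs and 5.42, 6.14 and 5.504 with CrOE EVs. Every EV library lay above every untreated one. The rise was 0.64 with shCon EVs (SE 0.15, adjusted p = 0.00486), 0.58 with shCr EVs (SE 0.15, adjusted p = 0.00801) and 0.73 with CrOE EVs (SE 0.15, adjusted p = 0.000586). No pair of EV groups passed the test for Bmpr1b.

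**Figure D3:**
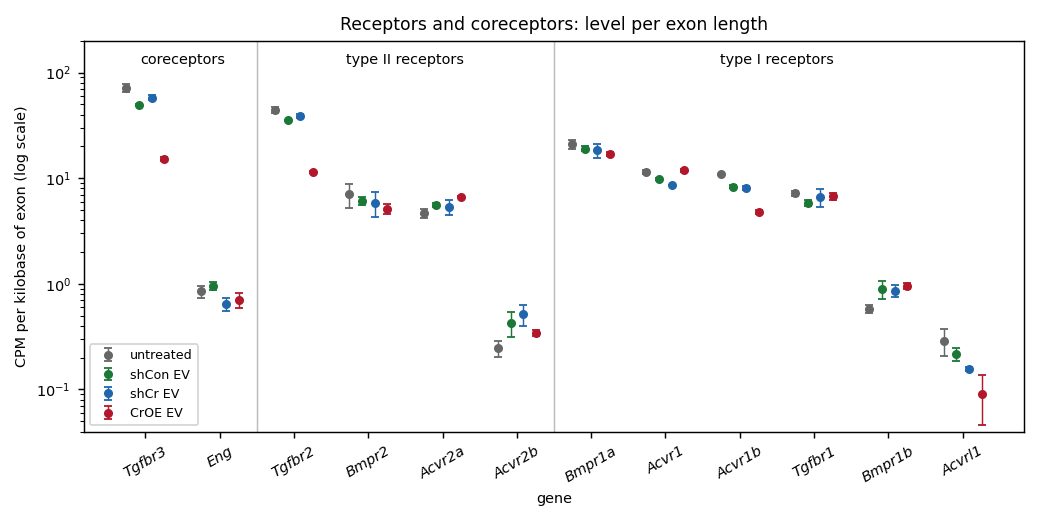
CPM per kilobase of exon, on a log axis, for the tested coreceptors, type II and type I receptors; points are group means and bars are SDs over 3 libraries. Tgfbr3 and Tgfbr2 lead their classes in all 4 groups and show the widest gap between CrOE EVs and the other groups, while Eng, Acvr2b, Bmpr1b and Acvrl1 have means under 1 CPM per kilobase in all 4 groups.

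The receptor-regulated SMADs carry the signal to the nucleus. Smad3 had 85.7, 82.5 and 86.3 CPM in the untreated libraries, 104, 106 and 102 with shCon EVs, 115, 132 and 126 with shCr EVs and 66.3, 73.9 and 71.6 with CrOE EVs. The 4 groups did not overlap: shCr libraries were highest, then shCon, untreated and CrOE. Smad3 rose with shCon EVs (log2 fold change 0.29, SE 0.06, adjusted p = 0.00208) and shCr EVs (log2 fold change 0.55, SE 0.06, adjusted p = 1.2e-05) and fell with CrOE EVs (log2 fold change -0.27, SE 0.06, adjusted p = 0.00134). The difference between shCr and shCon EVs (log2 fold change 0.26, SE 0.06, adjusted p = 0.0164) was lost without shCon EV replicates 1, 2 or 3 or shCr EV replicate 2 or when the other groups were left out of the model (adjusted p = 0.0535 to 0.0791, edgeR). Smad2, its partner in the TGF-beta and activin branch, was higher after CrOE EVs by 0.26 (log2) and after shCr EVs by 0.18, the latter lost without untreated replicates 1 or 2, shCon EV replicates 1 or 2, shCr EV replicates 1 or 3 or CrOE EV replicates 1, 2 or 3, when the other groups were left out of the model or without the low-count filter (adjusted p = 0.0509 to 0.131, edgeR).

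In the BMP branch, Smad1 had 58.4, 52.9 and 55.2 CPM in the untreated libraries, 47.2, 50.2 and 50.7 with shCon EVs, 44.8, 49.98 and 49.4 with shCr EVs and 99.6, 107 and 97.6 with CrOE EVs. The CrOE libraries stood well above all others, and the shCon and shCr libraries lay below all untreated ones. The rise with CrOE EVs was large beside the spread (log2 fold change 0.87, SE 0.06, adjusted p = 3.2e-08). The falls with shCon EVs (log2 fold change -0.17, SE 0.06, adjusted p = 0.0471) and shCr EVs (log2 fold change -0.21, SE 0.06, adjusted p = 0.0186) were small, the first lost without untreated replicates 1 or 3, shCon EV replicates 1, 2 or 3, shCr EV replicates 2 or 3 or CrOE EV replicates 1 or 3 or without the low-count filter (adjusted p = 0.0516 to 0.163, edgeR) and the second without untreated replicate 1 or when the other groups were left out of the model (adjusted p = 0.0638 to 0.0714, edgeR). Smad5 also rose with CrOE EVs, from 71.5 ± 6.71 to 109 ± 4.85 CPM (log2 fold change 0.60), whereas Smad9 fell from 6.48 ± 0.356 to 3.34 ± 0.0276 CPM (-0.96). Smad9's fall with shCr EVs (-0.31) was lost without untreated replicates 1 or 2, shCon EV replicates 2 or 3, shCr EV replicates 1 or 3 or CrOE EV replicates 1, 2 or 3, when the other groups were left out of the model, without the low-count filter or with DESeq2 (adjusted p = 0.0502 to 0.124, edgeR or DESeq2). The common SMAD, Smad4, rose with CrOE EVs by 0.22 (adjusted p = 0.0039) and was not called with the other EVs.

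The inhibitory SMADs, which compete with or degrade the active complexes and are themselves targets of the pathway, went apart after CrOE EVs. Smad7, the inhibitor of TGF-beta and BMP receptors alike, had 8.604, 9.53 and 8.90 CPM in the untreated libraries, 7.44, 7.204 and 7.13 with shCon EVs, 5.46, 5.93 and 5.99 with shCr EVs and 24.0, 25.4 and 23.3 with CrOE EVs. All 4 groups were separate, with CrOE highest and shCr lowest. It fell with shCon EVs (log2 fold change -0.31, SE 0.07, adjusted p = 0.00569) and shCr EVs (log2 fold change -0.64, SE 0.08, adjusted p = 2.9e-05) and rose with CrOE EVs (log2 fold change 1.43, SE 0.07, adjusted p = 9.3e-10). The difference between shCr and shCon EVs (log2 fold change -0.32, SE 0.08, adjusted p = 0.0203) was lost without shCon EV replicates 1, 2 or 3, when the other groups were left out of the model or without the low-count filter (adjusted p = 0.0564 to 0.0883, edgeR). Smad6, which acts mainly on the BMP branch, fell with all 3 kinds of EV, from 18.1 ± 0.830 CPM to 14.1 ± 0.847, 12.8 ± 1.33 and 8.49 ± 0.538 after shCon, shCr and CrOE EVs (log2 fold changes -0.36, -0.49 and -1.09).

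Latent TGF-beta binding proteins tether the inactive ligand to the matrix, except Ltbp2, which does not bind latent TGF-beta and is tied to elastic fibres. Ltbp2 had 374, 407 and 454 CPM in the untreated libraries, 256, 258 and 241 with shCon EVs, 116, 152 and 142 with shCr EVs and 27.5, 28.8 and 31.5 with CrOE EVs. The groups were separate, in the order untreated, shCon, shCr, CrOE. It fell with shCon EVs (log2 fold change -0.71, SE 0.10, adjusted p = 8.7e-05), shCr EVs (log2 fold change -1.59, SE 0.10, adjusted p = 9.2e-08) and CrOE EVs (log2 fold change -3.81, SE 0.11, adjusted p = 5.0e-12). It was lower after shCr than after shCon EVs (log2 fold change -0.88, SE 0.10, adjusted p = 0.000132), a call that held in all alternatives run. About 9.3% of its exon bases lie opposite another gene's exons. Ltbp1 fell with all EVs, from 138 ± 15.1 CPM to 62.4 ± 2.70, 71.4 ± 0.851 and 40.5 ± 0.692. Ltbp3 and Ltbp4 fell with CrOE EVs (-0.93 and -0.79), while Ltbp3 was higher after shCon EVs (0.26), a call lost without untreated replicates 1 or 3, shCon EV replicates 1, 2 or 3, shCr EV replicate 2 or CrOE EV replicates 1, 2 or 3 or with at least 10 counts required in every library (adjusted p = 0.0516 to 0.205, edgeR). Ltbp3 was also lower after shCr than after shCon EVs (-0.35), a call lost without untreated replicate 3, shCon EV replicates 1, 2 or 3 or CrOE EV replicates 1, 2 or 3 or when the other groups were left out of the model (adjusted p = 0.054 to 0.126, edgeR).

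Of the extracellular antagonists, follistatin (Fst), which traps activins, had 134, 131 and 125 CPM in the untreated libraries, 57.4, 55.0 and 55.5 with shCon EVs, 68.5, 60.6 and 64.2 with shCr EVs and 3.996, 3.78 and 4.61 with CrOE EVs. Untreated libraries were highest, shCr and shCon libraries followed without overlapping each other, and CrOE libraries were lowest. Fst fell with shCon EVs (log2 fold change -1.22, SE 0.06, adjusted p = 3.1e-08), shCr EVs (log2 fold change -1.01, SE 0.06, adjusted p = 1.1e-07) and CrOE EVs (log2 fold change -4.97, SE 0.08, adjusted p = 7.1e-14), the last the largest change of any tested member in the 6 comparisons. Its difference between shCr and shCon EVs (0.20, adjusted p = 0.072 in edgeR) passed only with DESeq2 (adjusted p = 0.0305). Fst, Id3 and Inhbb, in that order, had the 3 largest falls with CrOE EVs.

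Fstl1, a secreted follistatin-like glycoprotein reported to bind BMPs, had 1485, 1319 and 1406 CPM in the untreated libraries, 1029, 1013 and 997 with shCon EVs, 802, 700.1 and 665 with shCr EVs and 313, 338 and 324 with CrOE EVs. The order untreated, shCon, shCr, CrOE held without overlap. The log2 fold changes were -0.47 with shCon EVs (SE 0.07, adjusted p = 0.000183), -0.96 with shCr EVs (SE 0.07, adjusted p = 4.0e-07) and -2.11 with CrOE EVs (SE 0.07, adjusted p = 2.8e-11). It was lower after shCr than after shCon EVs (log2 fold change -0.49, SE 0.07, adjusted p = 0.000911) in all alternatives run. Gremlin 1 (Grem1), a BMP trap and the most abundant antagonist at 567 ± 56.6 CPM per kilobase in untreated cells, fell with every kind of EV, to 300.2 ± 6.40, 291 ± 42.6 and 304 ± 7.01 CPM per kilobase after shCon, shCr and CrOE EVs. Its log2 fold changes against untreated cells were -0.92, -0.96 and -0.90, and no pair of EV groups differed past the threshold, the difference of CrOE from shCr EVs being 0.06 (SE 0.09), which passed without shCr EV replicate 1 (adjusted p = 0.0183, edgeR).

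Chordin (Chrd), another BMP trap, had 2.23, 3.13 and 3.05 CPM in the untreated libraries, 4.65, 4.61 and 4.97 with shCon EVs, 3.77, 4.52 and 4.66 with shCr EVs and 2.38, 1.77 and 2.36 with CrOE EVs. The shCon and shCr libraries all lay above the untreated ones, and the CrOE libraries overlapped them. It rose with shCon EVs (log2 fold change 0.76, SE 0.16, adjusted p = 0.0021) and shCr EVs (log2 fold change 0.63, SE 0.16, adjusted p = 0.00668). With CrOE EVs the value was -0.37 (adjusted p = 0.0591), which passed without untreated replicate 1 or shCr EV replicate 1 and under the stricter low-count filter (adjusted p = 0.0129 to 0.0458, edgeR). Noggin stayed low throughout, at 0.293, 0.267 and 0.294 CPM in untreated libraries and 1.11, 1.19 and 1.04 after CrOE EVs. Its counts were 5 to 8 in the other 9 libraries and 35 to 41 with CrOE EVs, and no test is given since it passed the filter only through that group. Fstl3, whose exons lie to 47.3% opposite those of Prss57, was not called against untreated cells.

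Bambi encodes a receptor without a kinase that dampens signalling. It had 3.15, 3.66 and 2.76 CPM in the untreated libraries, 6.08, 6.34 and 4.94 with shCon EVs, 8.78, 7.82 and 6.39 with shCr EVs and 0.729, 0.989 and 0.842 with CrOE EVs. The shCon and shCr libraries all lay above the untreated ones and the CrOE libraries all below. Bambi rose with shCon EVs (log2 fold change 0.86, SE 0.16, adjusted p = 0.000984) and shCr EVs (log2 fold change 1.26, SE 0.16, adjusted p = 3.9e-05) and fell with CrOE EVs (log2 fold change -1.89, SE 0.19, adjusted p = 1.4e-06). From shCon to shCr EVs the value was 0.40 (adjusted p = 0.122), not past the threshold.

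The intracellular repressors include SKI and SKIL (SnoN), which hold SMAD target genes off, TGIF1, a homeodomain corepressor of SMAD2, and the ubiquitin ligases SMURF1 and SMURF2. Skil, itself a well-known TGF-beta target, had 23.4, 19.9 and 22.0 CPM in the untreated libraries, 42.8, 36.2 and 35.1 with shCon EVs, 16.2, 14.5 and 13.8 with shCr EVs and 79.4, 83.1 and 69.97 with CrOE EVs. The 4 groups were separate: CrOE highest, then shCon, untreated and shCr. Skil rose with shCon EVs (log2 fold change 0.80, SE 0.10, adjusted p = 3.7e-05) and CrOE EVs (log2 fold change 1.83, SE 0.10, adjusted p = 2.0e-09) and fell with shCr EVs (log2 fold change -0.56, SE 0.10, adjusted p = 0.000823). The difference between shCr and shCon EVs (log2 fold change -1.36, SE 0.10, adjusted p = 7.0e-06) was the largest of any member in that comparison and held in all alternatives run. Ski stood at a log2 fold change of 0.01 after shCon EVs (SE 0.06, adjusted p = 0.918) and was lower after shCr EVs (-0.34) and CrOE EVs (-0.32).

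Tgif1 had 55.8, 57.6 and 53.9 CPM in the untreated libraries, 77.1, 83.3 and 82.0 with shCon EVs, 66.6, 69.0 and 70.6 with shCr EVs and 205, 213 and 216 with CrOE EVs. The groups were separate, with CrOE highest, then shCon, shCr and untreated. It rose with shCon EVs (log2 fold change 0.54, SE 0.05, adjusted p = 4.3e-06), shCr EVs (log2 fold change 0.30, SE 0.05, adjusted p = 0.000434) and CrOE EVs (log2 fold change 1.92, SE 0.05, adjusted p = 3.0e-12). The difference between shCr and shCon EVs (log2 fold change -0.23, SE 0.05, adjusted p = 0.0119) was lost without shCon EV replicates 2 or 3 or when the other groups were left out of the model (adjusted p = 0.0579 to 0.0718, edgeR). Smurf1 rose with CrOE EVs, from 154 ± 2.05 to 228 ± 8.04 CPM (0.57). Smurf2 was slightly lower after shCon EVs (-0.29) and shCr EVs (-0.38), the first lost without untreated replicates 1 or 3 or shCon EV replicate 3 (adjusted p = 0.0686 to 0.076, edgeR).

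The ID genes encode helix-loop-helix proteins without a DNA-binding region that block other transcription factors. Id3 had 89.1, 105 and 96.7 CPM in the untreated libraries, 9.55, 10.6 and 10.4 with shCon EVs, 20.8, 22.8 and 23.0 with shCr EVs and 4.35, 4.71 and 4.21 with CrOE EVs. All 4 groups were separate, in the order untreated, shCr, shCon, CrOE. It fell with shCon EVs (log2 fold change -3.25, SE 0.08, adjusted p = 2.0e-10), shCr EVs (log2 fold change -2.12, SE 0.07, adjusted p = 1.4e-09) and CrOE EVs (log2 fold change -4.45, SE 0.09, adjusted p = 2.4e-13). Id1 had 31.6, 39.3 and 37.5 CPM in the untreated libraries, 7.51, 7.47 and 7.31 with shCon EVs, 9.52, 8.75 and 10.8 with shCr EVs and 11.2, 11.5 and 10.98 with CrOE EVs. Every EV library lay below every untreated one, with shCon libraries lowest. Its log2 fold changes were -2.28 (SE 0.10, adjusted p = 6.4e-09), -1.90 (SE 0.09, adjusted p = 1.3e-08) and -1.69 (SE 0.09, adjusted p = 2.5e-09) with shCon, shCr and CrOE EVs.

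Id2 had 11.97, 14.9 and 14.3 CPM in the untreated libraries, 1.82, 1.49 and 1.22 with shCon EVs, 3.35, 3.17 and 3.26 with shCr EVs and 2.82, 2.21 and 2.61 with CrOE EVs. Again all EV libraries lay below the untreated ones and the shCon libraries were lowest. The log2 fold changes were -3.17 (SE 0.15, adjusted p = 1.3e-08), -2.07 (SE 0.13, adjusted p = 1.2e-07) and -2.43 (SE 0.14, adjusted p = 2.9e-09). Id4, at 4.81 ± 0.761 CPM in untreated cells, fell to 2.66 ± 0.178, 2.79 ± 0.121 and 0.811 ± 0.186 CPM after shCon, shCr and CrOE EVs; 6.6% of its exon bases lie opposite another gene's. The 4 ID genes thus fell together with every kind of EV, but the EV groups were not in one order: CrOE EVs left Id3 and Id4 lowest, while shCon EVs left Id1 and Id2 lowest.

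Against shCon EVs, shCr EVs left 3 of the 4 ID genes higher, beside 5.22% of all genes. The log2 fold change was 1.12 for Id3 (SE 0.08, adjusted p = 5.2e-06) and 1.10 for Id2 (SE 0.16, adjusted p = 0.000925), and both calls held in all alternatives run. For Id1 it was 0.38 (SE 0.10, adjusted p = 0.0324), lost without untreated replicate 3, shCon EV replicates 1, 2 or 3 or shCr EV replicate 3, when the other groups were left out of the model or without the low-count filter (adjusted p = 0.0501 to 0.113, edgeR). Id4 stood at 0.07 (adjusted p = 0.852). Against shCon EVs, CrOE EVs left Id1 (0.59) and Id2 (0.75) higher and Id3 (-1.21) and Id4 (-1.70) lower, beside 36.5% of all genes higher and 36.1% lower. Id2 was also lower after CrOE than after shCr EVs (-0.36, adjusted p = 0.0398), a call lost without untreated replicate 3, shCon EV replicate 2, shCr EV replicates 1, 2 or 3 or CrOE EV replicates 2 or 3, without the low-count filter or with DESeq2 (adjusted p = 0.0508 to 0.152, edgeR or DESeq2).

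**Figure D4:**
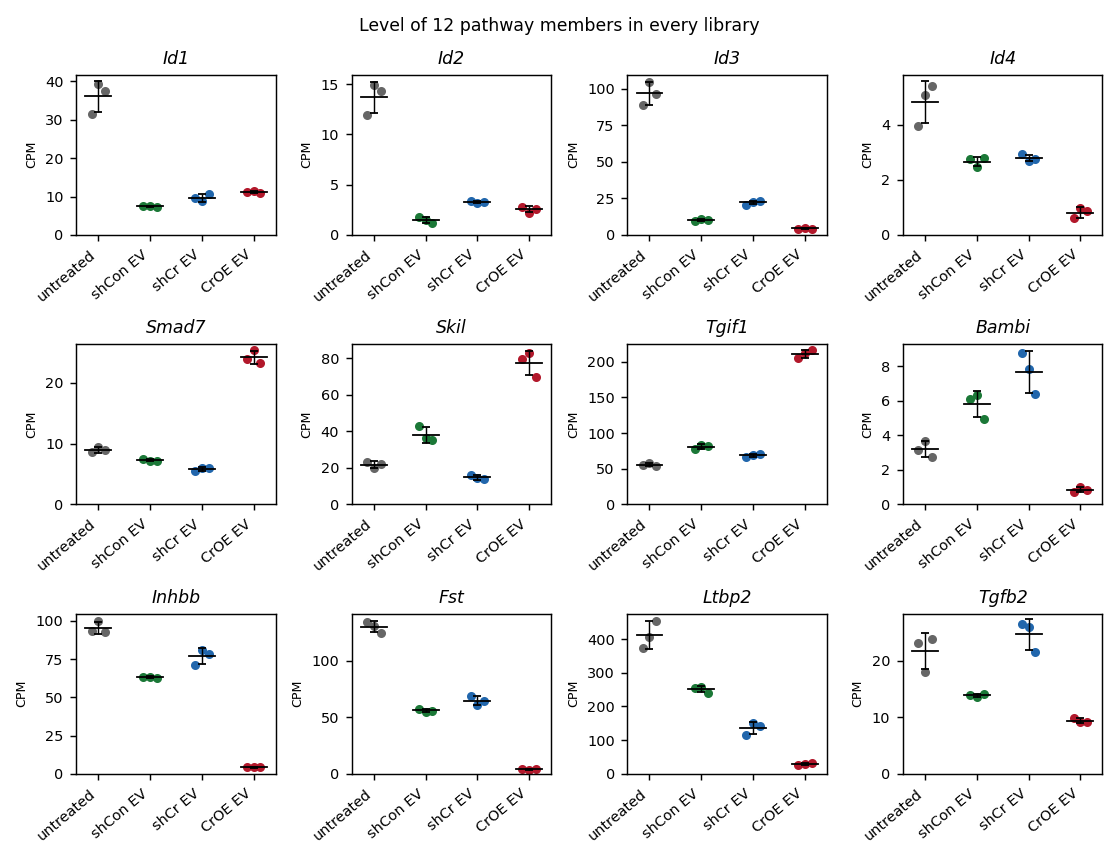
CPM of 12 members in every library (points), with the group mean (line) and SD (bar), each axis starting at 0. Id1 to Id4 are lower in all 9 EV libraries than in any untreated one; Smad7, Skil and Tgif1 are highest after CrOE EVs, and Inhbb, Fst, Ltbp2, Bambi and Tgfb2 lowest.

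A further 98 genes of the pathway and its known targets were looked at by list, of which 72 were tested. These lists, too, were chosen with earlier results of these data known, so their shares are a description only. Among 19 TGF-beta targets, 6 rose and 9 fell with shCon EVs, 3 and 15 with shCr EVs, and 2 and 14 with CrOE EVs, with median log2 fold changes of -0.16, -0.58 and -1.29. These calls made up 78.9%, 94.7% and 84.2% of the tested genes of the list, beside 38.1%, 37.3% and 73.7% of all genes. From shCon to shCr EVs, 3 were higher and 12 lower (median -0.52) beside the 8.73% background. Col1a1, the main fibrillar collagen chain, stood at 4535 ± 229 CPM in untreated cells, 6557 ± 37.8 with shCon EVs, 3532 ± 558 with shCr EVs and 721 ± 23.8 with CrOE EVs. It rose with shCon EVs (0.53) and fell with shCr EVs (-0.36) and CrOE EVs (-2.65). Thbs1, or thrombospondin 1, which can free TGF-beta from its latent form, stood at 2365 ± 75.2 CPM in untreated cells, 1674 ± 35.9 with shCon EVs, 1823 ± 140.1 with shCr EVs and 150.5 ± 15.0 with CrOE EVs, and fell with all 3 (log2 fold change -3.97 with CrOE EVs). Several of these targets, the collagens and Fn1 among them, are also in the fibroblast marker list above.

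Of 9 BMP targets, 5 were tested; 0 rose and 2, 4 and 4 fell with shCon, shCr and CrOE EVs (beside 38.1%, 37.3% and 73.7% of all genes). Atoh8, a BMP-responsive transcription factor, stood at 25.2 ± 3.22 CPM in untreated cells, 4.98 ± 0.248 with shCon EVs, 9.55 ± 1.84 with shCr EVs and 1.03 ± 0.0903 with CrOE EVs. Like Id2 and Id3 it was higher after shCr than after shCon EVs (0.94, adjusted p = 0.00132). Of 22 other intracellular regulators, 21 were tested, and 6, 4 and 7 rose and 3, 3 and 7 fell. That is 42.9%, 33.3% and 66.7% of the tested genes of the list, near or below the share of all genes. Pmepa1, a TGF-beta-induced inhibitor that binds SMADs, stood at 36.8 ± 2.81 CPM in untreated cells, 82.4 ± 1.92 with shCon EVs, 32.4 ± 2.99 with shCr EVs and 181 ± 4.19 with CrOE EVs, the order of group means that Skil had. It rose with shCon EVs (1.17) and CrOE EVs (2.30) and was lower after shCr than after shCon EVs (-1.34, adjusted p = 6.3e-07). From untreated cells to shCr EVs it was -0.18 (adjusted p = 0.0688), not past the threshold. Dab2, an adaptor of the TGF-beta receptors, stood at 223 ± 4.90 CPM in untreated cells, 251 ± 3.57 with shCon EVs, 249 ± 12.6 with shCr EVs and 57.2 ± 4.93 with CrOE EVs, and fell with CrOE EVs (-1.97).

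Of 24 other extracellular regulators, 18 were tested; 1, 0 and 0 rose and 7, 7 and 16 fell with shCon, shCr and CrOE EVs. With shCon and shCr EVs that is 44.4% and 38.9% of those tested, near the 38.1% and 37.3% of all genes, and with CrOE EVs 88.9% beside 73.7%. Bmper, a secreted BMP regulator, stood at 67.6 ± 2.54 CPM in untreated cells, 70.6 ± 0.974 with shCon EVs, 66.5 ± 4.57 with shCr EVs and 7.27 ± 0.682 with CrOE EVs. Of 5 other receptors and coreceptors, 2 were tested, the BMP coreceptors Rgma and Rgmb. Both rose with shCon EVs (0.38 and 0.28) and shCr EVs (0.56 and 0.72) and fell with CrOE EVs (-1.07 and -0.61). Of all genes 18.0% and 18.4% rose with shCon and shCr EVs, and 37.0% fell with CrOE EVs. Of 19 other ligands, 7 were tested; 2, 3 and 1 rose and 1, 1 and 4 fell (42.9%, 57.1% and 71.4% of the tested genes of the list). Gdf15, a stress-induced ligand, was the one that rose with CrOE EVs (1.55), and Inha, the inhibin alpha subunit, was among those that fell (-0.86).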

How the data were processed

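The deposited table gives the authors' estimated counts for each gene symbol and library, not scaled between libraries; 39.8% of values were not whole and 30.1% were not within 0.001 of a whole number. The submitters' processing notes name featureCounts and mm39; which step made fractional values, the annotation and the use of strand are not given in the sources used here. In 27 rows the symbol had become a date; these held at most 0.259% of a library's counts and hold no member. Totals were 25960054 to 37774020 per library.

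Values were rounded, filtered with filterByExpr on the 4 groups, scaled by TMM and tested with edgeR 4.0.16 (R 4.3.3; glmQLFit and glmQLFTest, 1 mean per group, 12 libraries, 8 residual degrees of freedom), with Benjamini-Hochberg adjustment over all 14279 tested genes and calls at an adjusted p under 0.05. The test was checked on simulated data. SEs come from the F statistic. CPM are TMM-scaled. Exon lengths and overlaps are from GENCODE M21, promoters from RefSeq. The members and lists were chosen with earlier results of these data known. Values in every library are given for Tdgf1 and, per comparison with untreated cells or shCon EVs, for the 4 largest calls in each direction whose average log2 CPM was 1 or more (18 members with Tdgf1). From other pathway lists the 2 largest such calls against untreated cells are named. Bmpr2 and Nog were given by library after their values were seen. Alternatives were DESeq2 1.42.0, size factors by median of ratios in edgeR, each library left out, no filter, a filter of 10 counts in all libraries, a block for the replicate number, a fold of at least 2, only the 2 groups compared, and, chosen after seeing the data, unrounded values. Single genes of the marker and pathway lists that are not named are not reported here beyond their lists' counts and sums.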

Additional observations from a re-analysis of the deposited data

How the results depend on the processing

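No member's direction reversed while called in any of the 19 alternative fits of a comparison; of 5335 values of single members, 187 lost a call and 50 gained one. Requiring a fold of at least 2 left 5, 7 and 24 members called after shCon, shCr and CrOE EVs against untreated cells, 3 between shCr and shCon EVs, and 20 and 19 between CrOE and shCon or shCr EVs, beside 6.04, 6.28, 29.7, 0.756, 27.2 and 29.6% of all genes. With each library left out in turn the counts were 24 to 33, 27 to 31, 38 to 41, 7 to 19, 36 to 41 and 32 to 37, in that order, beside 29.4 to 46.6, 29.2 to 46.0, 69.1 to 77.0, 4.37 to 9.58, 67.4 to 76.0 and 69.8 to 75.5% of all genes. The comparison of shCr with shCon EVs moved most: 7 members, against 16, were called in a model of only the 2 groups, which has fewer libraries to estimate the spread. The cause of this loss, and of those without a shCon library, was not tested. With the replicate number as a block the counts were 30, 29, 40, 17, 39 and 35 (39.9, 38.7, 74.6, 8.97, 73.6 and 74.8% of all genes). The block ended the calls of Smad1 with shCon and Acvrl1 with shCr EVs against untreated cells and of Id2 and Fstl3 between CrOE and shCr EVs, and added Tgfbr1 with shCon EVs against untreated cells and Ltbp4 between shCr and shCon EVs. In the check of pairing, deviations from the group means correlated at -0.204 to 0.315 between same-numbered libraries, over 0.1 in 4 of 18 such pairs and 7 of 36 others, so the block rests on shared numbers only. The order of levels per kilobase within a role differed in 10 of 44 role and group combinations when the longest transcript gave the length. Nog, Fstl3 and Acvrl1, with under 10 counts in at least 1 library, are limited by depth.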
